A study of Mus musculus with 12 samples.

Results

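ABC exporters are membrane pumps that use ATP to move their cargo out of a cell, and the hepatocyte keeps separate sets of them for its 2 faces. The 10 genes described here were taken by name, with no threshold on a measured value, and grouped by the face of the hepatocyte they are known to serve. Abcb11, Abcc2, Abcb4, Abcg2 and Abcb1a stand on the bile side (canalicular, 5 genes), and Abcc3, Abcc4, Abcc1 and Abcc6 on the blood side (basolateral, 4 genes). Abcb1b, the near copy of Abcb1a, was kept as a member of neither side. All 10 were found among the 55536 genes of the deposited tables, and all 10 passed the filter on low counts in each comparison.

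Bulk RNA sequencing was done on mouse liver in 3 groups of 4 samples each. The animals were wild-type C57BL/6J mice (strain label C57BL/6) aged 8 weeks, and every group, the control included, received 0.1 OD of adenovirus carrying a short hairpin RNA through the tail vein. The hairpin was directed against G0s2 (shG0s2), against Rgs16 (shRgs16) or against the bacterial gene LacZ (shLacZ, the control). Collection was 12 days after the injection, at zeitgeber time (ZT) 12, when the lights went off, and food had been withdrawn for 6 h of the light phase. G0s2 encodes an inhibitor of the triglyceride lipase ATGL, and Rgs16 encodes a protein that shortens G protein signalling. No group without virus was analysed here, and the labels do not say whether the 4 samples of a group came from separate animals, so the spread that enters the p-values may be technical.

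Canalicular pumps drive bile formation: bile salts, phospholipid and conjugated waste are pushed into the narrow canaliculus between neighbouring hepatocytes, and water follows. Basolateral pumps send similar cargo, mainly glucuronide, sulphate and glutathione conjugates and bile salts, back to the blood. Several of the basolateral genes are quiet in a normal liver and are known in mice and humans to rise when bile flow is blocked or when the stress-responsive transcription factor NRF2 is active.

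Each library held between 18458222 and 27170419 estimated counts, with shG0s2 libraries spanning 18458222 to 26031003, shRgs16 libraries 24855297 to 27170419 and shLacZ libraries 25636445 to 26472189. The targeted transcripts were lower in their own groups on the scaled count scale: G0s2 spanned 24.6 to 49.3 CPM (counts scaled to the size of the library) in shG0s2 livers and 66.6 to 87.3 CPM in shLacZ livers, and Rgs16 spanned 14.4 to 37.4 CPM in shRgs16 livers and 105 to 212 CPM in shLacZ livers. As TPM (a level per transcript length), the G0s2 ranges overlapped, at 60.4 to 125 TPM in shG0s2 livers and 101 to 135 TPM in shLacZ livers. Divided by library size alone they also overlapped, at 27.8 to 56.6 CPM in shG0s2 livers and 53.5 to 71.9 CPM in shLacZ livers. On the scaled count scale Rgs16 was also lower in shG0s2 livers, at 43.9 to 71.2 CPM. As TPM its range there, 31.1 to 51.2, overlapped that of shLacZ livers, 47.0 to 94.3. G0s2 in shRgs16 livers, at 57.8 to 88.2 CPM, overlapped shLacZ livers. Major urinary protein (Mup) genes took 1.15% ± 0.31 of counts in shG0s2 livers, 2.27% ± 0.89 in shRgs16 livers and 10.5% ± 0.64 in shLacZ livers (SD, n = 4 each). CPM values below are scaled by TMM, which sets the bulk of genes equal between libraries. Dividing by library size alone shifted the log2 change of all tested genes, at the median, by 0.49 in shG0s2 against shLacZ livers and by 0.30 in shRgs16 against shLacZ livers. Under that scaling 89.0% of all calls in shG0s2 against shLacZ were higher, against 51.7% under TMM. In shRgs16 against shLacZ 85.7% were higher, against 50.1% under TMM. The part of the Mup genes in this shift was not tested.

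Ordered by level per transcript length, the canalicular pumps Abcc2, Abcb4 and Abcb11 were the most abundant members in the control livers. In shLacZ livers Abcc2 led with 157 ± 6.53 TPM, followed by Abcb4 with 127 ± 9.59 TPM and Abcb11 with 104 ± 17.9 TPM (SD, n = 4 each), and the ranges of Abcb4 and Abcb11 overlapped. Abcg2 with 70.5 ± 4.44 TPM and Abcc3 with 66.2 ± 9.33 TPM came next and also overlapped, and Abcc6 followed with 46.4 ± 1.76 TPM. The remaining members were scarce in shLacZ livers: Abcb1a had 3.38 ± 0.60 TPM, and Abcc4, Abcb1b and Abcc1 had 0.99 ± 0.10, 0.82 ± 0.18 and 0.79 ± 0.15 TPM, each overlapping the next in that order.

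The order differed between the groups. In shG0s2 livers Abcc3, at 175 ± 16.1 TPM, came after Abcc2 (228 ± 20.1 TPM) and Abcb4 (190 ± 6.14 TPM), with a range that overlapped that of Abcb4 and lay above that of Abcb11 (130 ± 15.7 TPM). Abcc4 reached 16.4 ± 1.41 TPM there, just below Abcb1a at 20.6 ± 2.22 TPM. In shRgs16 livers Abcb4 (191 ± 10.8 TPM), Abcb11 (168 ± 16.0 TPM) and Abcc2 (147 ± 13.8 TPM) led, each overlapping its neighbour, while Abcc4 stayed low at 2.47 ± 0.29 TPM and overlapped Abcc1 at 1.98 ± 0.24 TPM.

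**Figure D1:**
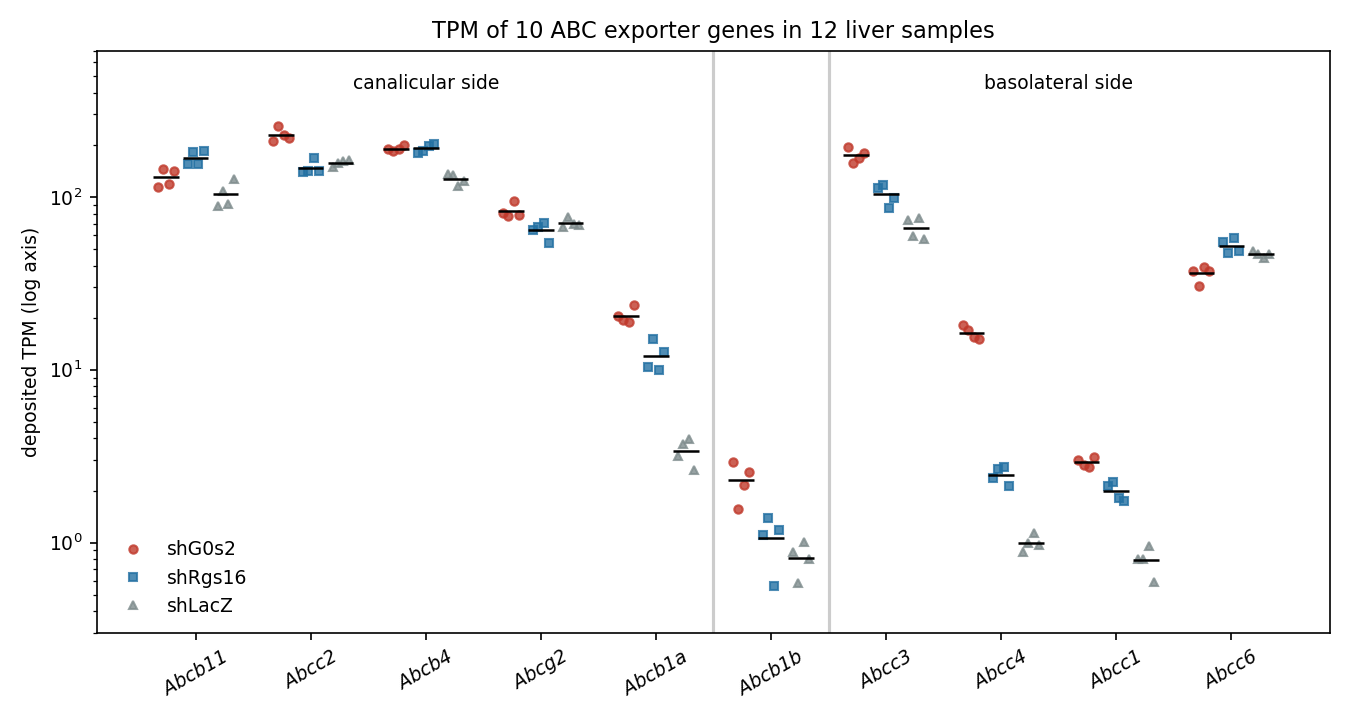
Deposited TPM (log axis) of the 10 exporter genes, with 1 point per liver sample and a black line at each group's mean, bile-side genes left, Abcb1b between and blood-side genes right. Abcc4 averages 16.4 TPM in the shG0s2 livers, apart from 2.47 TPM in shRgs16 livers and 0.99 TPM in shLacZ livers.

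In shG0s2 against shLacZ livers the blood-side pumps Abcc4, Abcc3 and Abcc1 rose, as did the drug pumps Abcb1a and Abcb1b, while Abcc6, Abcg2 and Abcb11 fell; the bile-side pumps Abcc2 and Abcb4 did not pass the test. That is 8 of 10 members past a false discovery rate (FDR) of 0.05 by edgeR's quasi-likelihood test, 5 higher and 3 lower, in a comparison where 60.5% of all 15592 tested genes passed, 31.3% higher and 29.2% lower. The 5 canalicular members split into 1 higher and 2 lower with a median log2 change of -0.13, the 4 basolateral members into 3 higher and 1 lower with a median of 1.04, and the median over all tested genes was 0.01. The sample ranges of 7 members did not overlap between the groups, against 55.5% of all tested genes. With library size alone the canalicular members split into 3 higher and 0 lower with a median of 0.36, and the basolateral split was the same. Under that scaling 64.5% of all tested genes were higher and 8.01% lower. A large share of all genes passed here, so the counts alone say little about the exporters as a set.

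In shRgs16 against shLacZ livers Abcc4, Abcc1, Abcc3 and Abcb1a rose and Abcc2 and Abcg2 fell. That is 6 of 10 members, 4 higher and 2 lower, where 49.1% of all 15324 tested genes passed, 24.6% higher and 24.5% lower. The canalicular median was 0.17 and the basolateral median 0.60, against 0.01 over all tested genes. The ranges of the same 6 members did not overlap, against 45% of all tested genes. With library size alone the canalicular members split into 3 higher and 1 lower, against 1 higher and 2 lower with TMM. Of all tested genes, 50.1% were then higher and 8.35% lower. The 2 comparisons share the 4 shLacZ samples, so they are not independent of each other.

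**Figure D2:**
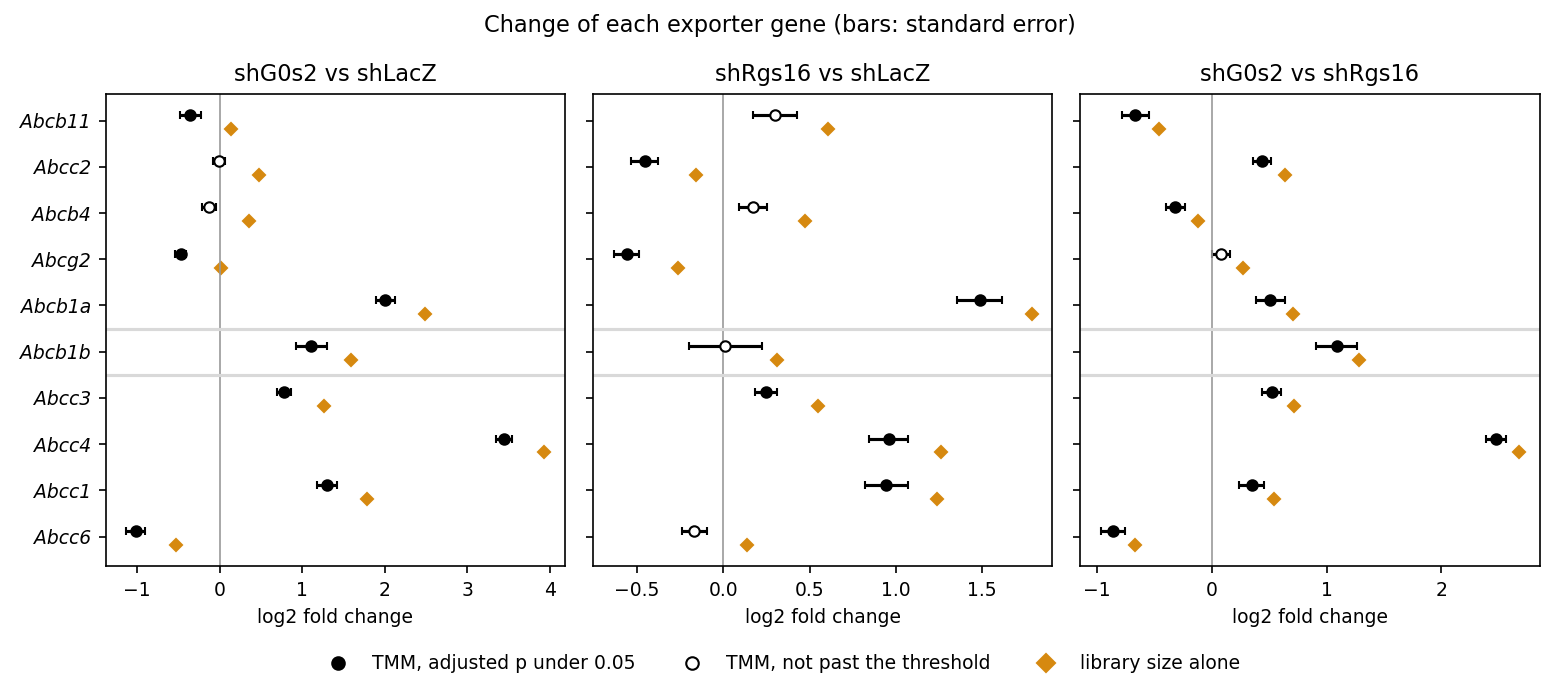
Log2 fold change of each member in the 3 comparisons, with circles for TMM scaling (filled where the edgeR adjusted p is under 0.05, bars for the standard error) and diamonds for library size alone. The Abcc4 circle of shG0s2 against shLacZ lies at 3.45, above every other member, and in each panel the diamonds lie to the right of the circles, past 0 for Abcb11, Abcc2, Abcb4 and Abcg2 in shG0s2 against shLacZ and for Abcc6 in shRgs16 against shLacZ.

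Set directly against each other, shG0s2 and shRgs16 livers differed in 9 of 10 members, 6 higher and 3 lower in shG0s2 livers, where 41.4% of all 16018 tested genes differed, 21% higher and 20.5% lower. Abcg2 was the member that did not pass. With library size alone the median over all tested genes shifted by 0.20 in this comparison, and 79.4% of calls were higher, against 50.6% with TMM. The ranges of 8 members did not overlap, against 39.8% of all tested genes.

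Abcc4 (MRP4), a basolateral pump for cyclic nucleotides and for bile salts carried together with glutathione, showed the largest change of the 10 in shG0s2 against shLacZ livers and in shG0s2 against shRgs16 livers; in shRgs16 against shLacZ livers that of Abcb1a was larger. The gene lies on the minus strand of chromosome 14 (chr14:118482692-118706219, GRCm38). It had 65.7, 55.6, 57.9 and 53.1 CPM in shG0s2 livers, 9.95, 11, 11.5 and 9.26 CPM in shRgs16 livers, and 5.07, 5.66, 4.90 and 5.79 CPM in shLacZ livers. The 3 groups lay in 3 separate bands. Against shLacZ the log2 change was 3.45 (SE 0.09, edgeR adjusted p = 4.69e-10) in shG0s2 livers, a fold of 10.9, and 0.96 (SE 0.11, edgeR adjusted p = 3.42e-05) in shRgs16 livers. Its p ranked 3 among the 15592 genes tested in shG0s2 against shLacZ. Between shG0s2 and shRgs16 livers the log2 difference was 2.48 (SE 0.09, edgeR adjusted p = 1.18e-10), with a p that ranked 1 of 16018. The counts behind these levels were 1278 to 1965 reads in shG0s2 libraries, 233 to 303 in shRgs16 libraries and 109 to 123 in shLacZ libraries. The authors' deposited table gave Abcc4 a log2 ratio of 3.44 in shG0s2 against shLacZ and 0.95 in shRgs16 against shLacZ.

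The window around the annotated start of Abcc4 is shown because this gene carries the largest change in shG0s2 livers, beside those of Abcb1a, which also rose in both knockdowns, and of Abcc2 and Abcb11, the main pumps of the bile side. Each window runs from 250 bases before to 50 bases after a RefSeq start (GRCm38.p6), 5′ to 3′ on the gene's own strand. RefSeq windows were matched for 7 of the 10 members. Capitals mark matches, on either strand, to TGACNNNGC, the core of the antioxidant response element that NRF2 binds, or to AGGTCA, a hexamer bound by many nuclear receptors. The reverse complement of the second, TGACCT, can overlap the first.
Abcc4, chr14:118706170-118706469, minus strand: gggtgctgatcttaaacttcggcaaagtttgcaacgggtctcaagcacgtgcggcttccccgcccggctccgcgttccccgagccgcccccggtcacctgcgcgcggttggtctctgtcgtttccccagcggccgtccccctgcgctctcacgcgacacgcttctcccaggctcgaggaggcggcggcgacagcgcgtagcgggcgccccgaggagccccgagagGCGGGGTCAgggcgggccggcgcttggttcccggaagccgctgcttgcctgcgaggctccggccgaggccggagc
Abcb1a, chr5:8566841-8567140, plus strand: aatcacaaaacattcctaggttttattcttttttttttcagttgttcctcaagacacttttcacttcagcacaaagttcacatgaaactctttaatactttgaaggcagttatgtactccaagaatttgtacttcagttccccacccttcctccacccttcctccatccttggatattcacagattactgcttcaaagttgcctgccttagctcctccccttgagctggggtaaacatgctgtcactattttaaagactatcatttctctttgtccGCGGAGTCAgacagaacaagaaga
Abcc2, chr19:43782058-43782357, plus strand: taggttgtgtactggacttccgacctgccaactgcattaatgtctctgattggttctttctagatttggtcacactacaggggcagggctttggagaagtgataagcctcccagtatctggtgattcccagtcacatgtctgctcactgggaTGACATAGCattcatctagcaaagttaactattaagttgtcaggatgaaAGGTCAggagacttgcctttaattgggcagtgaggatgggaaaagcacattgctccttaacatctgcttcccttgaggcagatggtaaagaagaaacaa
Abcb11, chr2:69342567-69342866, minus strand: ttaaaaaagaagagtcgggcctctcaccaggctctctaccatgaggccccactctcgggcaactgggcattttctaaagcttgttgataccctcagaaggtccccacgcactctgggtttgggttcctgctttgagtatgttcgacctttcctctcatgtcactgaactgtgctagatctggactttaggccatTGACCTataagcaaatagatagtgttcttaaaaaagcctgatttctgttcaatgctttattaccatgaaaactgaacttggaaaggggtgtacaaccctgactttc

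The TGACNNNGC letters began 25 bases before the start in the Abcc4 window, 26 bases beyond it in the Abcb1a window and 98 bases before it in the Abcc2 window, and were not in the Abcb11 window. They also lay 23 bases before a second RefSeq start of Abcc4, and in none of the windows of Abcb1b, Abcb4 and Abcg2. Of all 32851 RefSeq promoter windows of this length, 12.4% held TGACNNNGC and 16.3% held AGGTCA. The hexamer began 56 bases before the start of Abcb11, on the opposite strand, and 49 bases before that of Abcc2. These matches describe letters in the windows and do not show binding, and their bearing on the changes was not tested. Abcc2 carries a match; in shG0s2 against shLacZ livers it did not pass the test with TMM, and it rose and passed with library size alone. The RefSeq start of Abcb1a lies 92986 bases upstream of the GENCODE gene start, and gene-level counts do not show which start was used.

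Abcc3 (MRP3) exports glucuronides such as those of bilirubin and drugs to the blood. It had the highest mean TPM of the basolateral members in every group. As CPM, Abcc6 lay above it in shLacZ livers, at 222 to 266 CPM against 188 to 210 CPM. The deposited lengths are close, at 4974 bases for Abcc6 and 5005 for Abcc3, and the cause of the reversed order was not tested. The Abcc3 gene is on chromosome 11 (chr11:94343295-94392997, minus strand). It had 386, 285, 356 and 342 CPM in shG0s2 livers, 247, 252, 219 and 237 CPM in shRgs16 livers, and 210, 200, 206 and 188 CPM in shLacZ livers. All 4 shG0s2 values lay above all others, with the second sample lowest among them, and the shRgs16 values lay just above the shLacZ values. Abcc3 rose by 0.78 on the log2 scale in shG0s2 against shLacZ livers (SE 0.09, edgeR adjusted p = 1.12e-05) and by 0.25 in shRgs16 against shLacZ livers (SE 0.06, edgeR adjusted p = 0.00642). The direct difference of 0.52 between shG0s2 and shRgs16 also passed (SE 0.08, edgeR adjusted p = 0.000122).

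Abcc1 (MRP1), a pump for glutathione conjugates and leukotriene C4 that is low in normal hepatocytes and present in many other cell types, rose in both knockdowns from a low level. Its gene lies at chr16:14361558-14475737 on the plus strand. Levels were 12.8, 11, 12.2 and 13.1 CPM in shG0s2 livers, 9.34, 10.7, 9.66 and 8.94 CPM in shRgs16 livers, and 4.70, 5.0, 6.05 and 4.28 CPM in shLacZ livers. No range overlapped another. The log2 change against shLacZ was 1.30 in shG0s2 livers (SE 0.12, edgeR adjusted p = 2.21e-06) and 0.94 in shRgs16 livers (SE 0.13, edgeR adjusted p = 8.2e-05). The difference of 0.35 between shG0s2 and shRgs16 livers passed the test (SE 0.11, edgeR adjusted p = 0.0166) but not without shG0s2 sample 4 (0.31, edgeR adjusted p = 0.0584) or without shRgs16 sample 4 (0.31, edgeR adjusted p = 0.0511).

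Abcc6 (MRP6), a pump needed for ATP release from hepatocytes and, through it, for the circulating pyrophosphate that holds back ectopic mineralization, was the basolateral member that went down. It lies at chr7:45967555-46030302 on the minus strand. Levels were 134, 92.5, 134 and 116 CPM in shG0s2 livers, 220, 204, 239 and 206 CPM in shRgs16 livers, and 266, 236, 222 and 248 CPM in shLacZ livers. All shG0s2 values lay below all others, and the shRgs16 and shLacZ ranges overlapped. The log2 change was -1.02 in shG0s2 against shLacZ livers (SE 0.11, edgeR adjusted p = 1.69e-05), and with library size alone it was still -0.54. In shRgs16 against shLacZ livers it was -0.17 (SE 0.07, edgeR adjusted p = 0.073) with TMM, turning to 0.13 with library size alone, and it passed without shLacZ sample 3 (-0.21, edgeR adjusted p = 0.029) or without shRgs16 sample 3 (-0.22, edgeR adjusted p = 0.0282). The direct difference between shG0s2 and shRgs16 livers was -0.86 (SE 0.10, edgeR adjusted p = 1.29e-05).

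Abcb11 (BSEP), the pump that sets the rate of bile salt secretion, separated the 2 knockdowns. The gene spans chr2:69238282-69342616 on the minus strand. It had 307, 347, 329 and 366 CPM in shG0s2 livers, 485, 553, 516 and 588 CPM in shRgs16 livers, and 390, 464, 343 and 540 CPM in shLacZ livers. The shG0s2 values lay entirely below the shRgs16 values, and the wide shLacZ range overlapped both. Between shG0s2 and shRgs16 livers the log2 difference was -0.67 (SE 0.12, edgeR adjusted p = 0.000335). Against shLacZ, the log2 change in shG0s2 livers was -0.36 with TMM (SE 0.13, edgeR adjusted p = 0.0305) but 0.14 with library size alone and 0.33 on the log2(TPM + 0.1) scale. That call was lost without shLacZ sample 2 (-0.32, edgeR adjusted p = 0.0817), shLacZ sample 4 (-0.23, edgeR adjusted p = 0.0729) or shG0s2 sample 1 (-0.31, edgeR adjusted p = 0.0784), 2 (-0.37, edgeR adjusted p = 0.0627) or 3 (-0.35, edgeR adjusted p = 0.0677). In shRgs16 livers the log2 change of 0.30 against shLacZ did not pass (SE 0.13, edgeR adjusted p = 0.0789), and it did with library size alone (0.61, edgeR adjusted p = 0.000703), on the log2(TPM + 0.1) scale (0.71, limma adjusted p = 0.00066) and without shLacZ sample 4 (0.42, edgeR adjusted p = 0.00691). In the authors' deposited table the log2 ratio of Abcb11 was -0.37 with an adjusted p of 0.0117 in shG0s2 against shLacZ, and 0.29 with an adjusted p of 0.059 in shRgs16 against shLacZ.

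Abcc2 (MRP2), which puts bilirubin glucuronides and glutathione conjugates into bile, was higher in shG0s2 than in shRgs16 livers, the reverse of Abcb11. The Abcc2 gene lies at chr19:43782192-43840740 on the plus strand. Levels were 753, 771, 828 and 744 CPM in shG0s2 livers, 558, 513, 662 and 559 CPM in shRgs16 livers, and 772, 803, 767 and 795 CPM in shLacZ livers. The shRgs16 values lay below all others, while the shG0s2 and shLacZ ranges overlapped. In shRgs16 against shLacZ livers Abcc2 fell by 0.46 on the log2 scale with TMM (edgeR adjusted p = 0.000511), and with library size alone the change was -0.16 (edgeR adjusted p = 0.0677), and on the log2(TPM + 0.1) scale -0.10 (limma adjusted p = 0.244). In shG0s2 against shLacZ livers the change was -0.01 with TMM (SE 0.07, edgeR adjusted p = 0.922) but 0.48 with library size alone (edgeR adjusted p = 2.1e-05). Between shG0s2 and shRgs16 livers the difference was 0.43 (SE 0.08, edgeR adjusted p = 0.000338). As a ratio of TPM within each library, which no scaling between libraries alters, Abcc2 stood at 1.76 ± 0.15 times Abcb11 in shG0s2 livers, 0.89 ± 0.15 times in shRgs16 livers and 1.55 ± 0.22 times in shLacZ livers (SD, n = 4 each). The shRgs16 ratios, 0.77 to 1.09, lay below all those of the other groups.

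Abcb4 (MDR2), which flips phosphatidylcholine into the canalicular leaflet so that bile salts do not damage the duct lining, had 498, 434, 491 and 497 CPM in shG0s2 livers, 561, 558, 633 and 642 CPM in shRgs16 livers, and 564, 566, 457 and 534 CPM in shLacZ livers. The shLacZ values overlapped both knockdowns, and the knockdowns did not overlap each other. The log2 change against shLacZ was -0.13 in shG0s2 livers (SE 0.09, edgeR adjusted p = 0.194) and 0.17 in shRgs16 livers (SE 0.08, edgeR adjusted p = 0.107), and both were positive and passed with library size alone, at 0.36 and 0.47, and on the log2(TPM + 0.1) scale, at 0.58 and 0.59. Without shLacZ sample 3 the shG0s2 change was -0.19 (edgeR adjusted p = 0.0406). The difference between shG0s2 and shRgs16 livers was -0.32 with TMM (SE 0.08, edgeR adjusted p = 0.00569) but -0.12 with library size alone (edgeR adjusted p = 0.144) and -0.00349 on the log2(TPM + 0.1) scale (limma adjusted p = 0.969).

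Abcg2 (BCRP), a canalicular pump for drugs, urate and porphyrins at chr6:58584523-58695676 on the plus strand, had 86.0, 77.0, 93.6 and 88.9 CPM in shG0s2 livers, 83.6, 80.0, 92.5 and 71.6 CPM in shRgs16 livers, and 117, 130, 118 and 118 CPM in shLacZ livers. Both knockdowns lay below shLacZ without overlap and overlapped each other. The log2 change against shLacZ was -0.47 in shG0s2 livers (SE 0.07, edgeR adjusted p = 8.68e-05) and -0.56 in shRgs16 livers (SE 0.07, edgeR adjusted p = 8.24e-05). The shG0s2 change turned to 0.01 with library size alone and to 0.23 on the log2(TPM + 0.1) scale, and the shRgs16 change was -0.26 with library size alone (edgeR adjusted p = 0.01) and lost its call on the log2(TPM + 0.1) scale, at -0.14 (limma adjusted p = 0.174). The difference of 0.08 between shG0s2 and shRgs16 livers did not pass with TMM (SE 0.08, edgeR adjusted p = 0.454), and it passed with library size alone at 0.28 (edgeR adjusted p = 0.00515) and on the log2(TPM + 0.1) scale at 0.37 (limma adjusted p = 0.00429).

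Abcb1a encodes one of the 2 mouse P-glycoproteins, broad exporters of drugs and toxins, and was the canalicular member with the largest change against shLacZ in both knockdowns. It had 55.3, 45.8, 53.7 and 62.2 CPM in shG0s2 livers, 32.4, 46.5, 33.3 and 40.3 CPM in shRgs16 livers, and 12.7, 15.0, 15.0 and 11.5 CPM in shLacZ livers. Every knockdown sample lay above every shLacZ sample, and the knockdown ranges met at shG0s2 sample 2 and shRgs16 sample 2. Abcb1a rose by 2.01 on the log2 scale in shG0s2 against shLacZ livers (SE 0.11, edgeR adjusted p = 6.01e-08), a fold of 4.03, and by 1.49 in shRgs16 against shLacZ livers (SE 0.13, edgeR adjusted p = 9.01e-06). The difference of 0.51 between shG0s2 and shRgs16 livers passed the test (SE 0.12, edgeR adjusted p = 0.00464).

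Abcb1b, the other mouse P-glycoprotein, moved in 1 knockdown. It had 3.91, 2.91, 4.12 and 3.85 CPM in shG0s2 livers, 1.96, 2.0, 1.45 and 1.55 CPM in shRgs16 livers, and 1.77, 1.37, 2.12 and 1.65 CPM in shLacZ livers. The shG0s2 values lay above all others, and the shRgs16 and shLacZ ranges overlapped. The log2 change against shLacZ was 1.11 in shG0s2 livers (SE 0.19, edgeR adjusted p = 0.000251) and 0.01 in shRgs16 livers (SE 0.21, edgeR adjusted p = 0.97), and the shG0s2 minus shRgs16 difference was 1.09 (SE 0.18, edgeR adjusted p = 0.000204). These levels rest on 67 to 119 counts in shG0s2 libraries, 37 to 55 in shRgs16 libraries and 29 to 48 in shLacZ libraries.

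Abcb1a (chr5:8660077-8748575), Abcb1b (chr5:8798147-8866315) and Abcb4 (chr5:8893717-8959231) lie in a row on the plus strand of chromosome 5, with gaps of 49571 and 27401 bases that hold no annotated gene. The 3 neighbours did not move as 1 unit: Abcb1a rose in both knockdowns, Abcb1b in shG0s2 livers and Abcb4 in neither with TMM. Of all 50-base stretches of the Abcb1a transcript, 15.5% also occur in Abcb1b, and 18% of those of Abcb1b occur in Abcb1a, so counts for this pair are uncertain to the extent that reads could be shared between them. For Abcb4 the share found in Abcb1a was 3.15%. An unclassified antisense model shares 553 exonic bases with Abcb1a and held 1 to 16 counts per library, against 245 to 1711 for Abcb1a.

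Ratios of TPM within a library compare members without any scaling between libraries. The summed TPM of the 5 canalicular members was 2.85 ± 0.36 times that of the 4 basolateral members in shG0s2 livers, 3.66 ± 0.41 times in shRgs16 livers and 4.07 ± 0.55 times in shLacZ livers (SD, n = 4 each). The shG0s2 range of 2.41 to 3.29 lay below the shLacZ range of 3.58 to 4.63, and the shRgs16 range of 3.20 to 4.05 overlapped both. Abcc3 made up most of the basolateral sum of TPM in every group. As CPM, Abcc6 was the larger in shLacZ livers, at 243 ± 18.7 against 201 ± 9.61 for Abcc3 (SD, n = 4 each). For each 100 TPM of Abcb11 there were 12.8 ± 2.31 TPM of Abcc4 in shG0s2 livers, 1.48 ± 0.25 in shRgs16 livers and 0.98 ± 0.20 in shLacZ livers. For each 100 TPM of Abcb4 there were 10.8 ± 0.83 TPM of Abcb1a in shG0s2 livers, 6.31 ± 1.34 in shRgs16 livers and 2.67 ± 0.59 in shLacZ livers, and these 3 ranges did not overlap. Abcc3 stood at 4.86 ± 0.42 times Abcc6 in shG0s2 livers, 2.0 ± 0.41 times in shRgs16 livers and 1.43 ± 0.22 times in shLacZ livers. The level of this ratio depends on the measure, since the order of the pair in shLacZ livers was reversed as CPM.

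**Figure D3:**
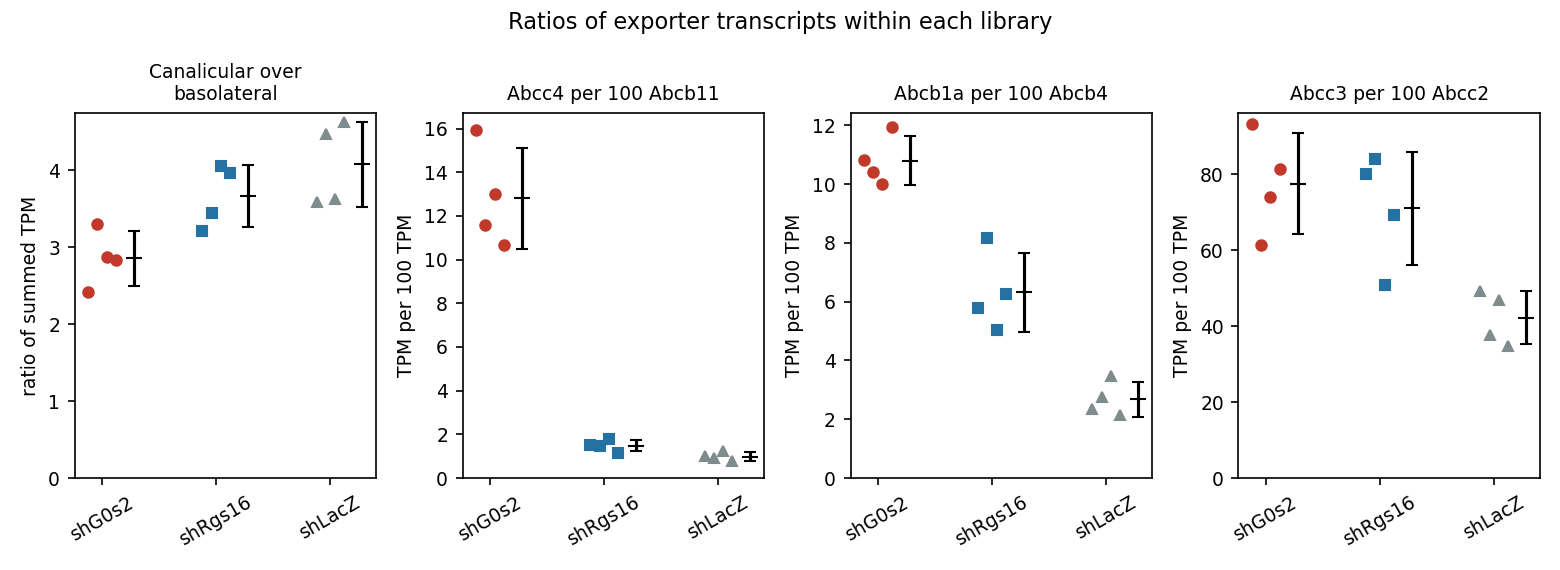
Ratios of TPM between exporter genes within each liver library, by group, with 1 point per sample and a bar for the mean ± SD (n = 4). The shG0s2 livers have 10.7 to 16.0 TPM of Abcc4 per 100 TPM of Abcb11, against 1.16 to 1.77 in shRgs16 livers and 0.76 to 1.24 in shLacZ livers.

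Genes that work beside the exporters were taken as lists, whose counts stand against the shares of all tested genes: 31.3% higher and 29.2% lower in shG0s2 against shLacZ livers, and 24.6% higher and 24.5% lower in shRgs16 against shLacZ livers. With library size alone these shares were 64.5% higher and 8.01% lower, and 50.1% higher and 8.35% lower. The list counts use TMM unless stated otherwise. NRF2 targets were mostly higher: 16 of 18 rose and 1 fell in shG0s2 against shLacZ livers (median log2 change 1.39), and 10 rose and 3 fell in shRgs16 against shLacZ livers (median 0.61). With library size alone 18 and 14 of them rose and none fell. Among them Cbr3, a carbonyl reductase, had a log2 change of 5.16 in shG0s2 and 1.54 in shRgs16 livers, Gstm1, a glutathione transferase, 2.72 in shG0s2 and 2.22 in shRgs16 livers, and Pgd, of the pentose phosphate pathway, 1.83 in shG0s2 and 0.82 in shRgs16 livers.

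Of 12 regulators of exporter genes, 1 rose and 9 fell in shG0s2 against shLacZ livers, and 1 rose and 7 fell in shRgs16 against shLacZ livers, but with library size alone the split was 4 higher and 3 lower in shG0s2 livers and 3 higher and 3 lower in shRgs16 livers. The 1 that rose was Nfe2l2, which encodes NRF2, with a log2 change of 1.17 in shG0s2 livers (SE 0.09, edgeR adjusted p = 5.27e-07) and 0.25 in shRgs16 livers (edgeR adjusted p = 0.00475). It averaged 172 ± 20.7 CPM in shG0s2 livers, 91.8 ± 2.50 CPM in shRgs16 livers and 76.9 ± 6.01 CPM in shLacZ livers. Hnf4a, a central hepatocyte transcription factor, fell by 0.96 in shG0s2 and 0.46 in shRgs16 livers, and the nuclear receptor partner Rxra fell by 0.53 in shG0s2 and 0.66 in shRgs16 livers. Hnf4a in shRgs16 livers (-0.16, edgeR adjusted p = 0.0757) and Rxra in shG0s2 livers (-0.05, edgeR adjusted p = 0.496) did not pass with library size alone. Nr1h4, which encodes the bile acid receptor FXR that drives Abcb11 and was named after its values were seen, had log2 changes of -0.48 in shG0s2 and -0.22 in shRgs16 livers with TMM, and of 0.01 and 0.08 with library size alone.

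Bile acid synthesis and basolateral uptake were mostly lower in both knockdowns. None of 11 bile acid synthesis genes rose and 10 fell in shG0s2 against shLacZ livers (median -0.83), or 1 rose and 7 fell when counts were divided by library size alone. Cyp7b1, of the alternative pathway, had a log2 change of -3.73 in shG0s2 livers and of -0.57 in shRgs16 livers (edgeR adjusted p = 0.0589). For Cyp27a1, the sterol 27-hydroxylase, the changes were -1.42 in shG0s2 and -0.49 in shRgs16 livers. In shRgs16 against shLacZ livers 1 rose and 7 fell (median -0.49), or 3 and 4 with library size alone. Of 9 tested genes for basolateral uptake and non-ABC efflux, 2 rose and 7 fell in each knockdown against shLacZ, or 2 rose and 6 fell in shG0s2 livers and 2 rose and 5 fell in shRgs16 livers without TMM. The bile salt importer Slc10a1 (NTCP) had log2 changes of -2.03 in shG0s2 and -2.10 in shRgs16 livers, and the organic anion importer Slco2b1 had changes of -1.10 in shG0s2 and -1.40 in shRgs16 livers.

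Other canalicular carriers fell in 4 of 6 cases and rose in none in shG0s2 against shLacZ livers (2 higher and 3 lower with library size alone), and fell in 4 and rose in 1 in shRgs16 against shLacZ livers (1 higher and 2 lower with library size alone). Tmem30a, a partner of phospholipid flippases, had log2 changes of -0.91 in shG0s2 and -0.53 in shRgs16 livers, and the canalicular flippase Atp8b1 had -0.00333 in shG0s2 livers (edgeR adjusted p = 0.969; 0.49 with library size alone) and -0.86 in shRgs16 livers. Of 10 scaffold and trafficking genes of the canalicular membrane, 3 rose and 3 fell in each knockdown against shLacZ, near the shares of all tested genes, or 7 rose and 1 fell in each without TMM. Ezr (ezrin) had log2 changes of 1.40 in shG0s2 and 0.91 in shRgs16 livers, and Msn (moesin) 0.92 in shG0s2 and 0.75 in shRgs16 livers. Bulk tissue does not show whether hepatocytes or other cells gave these transcripts. Rdx (radixin) of the same list, named after its values were seen, did not pass with TMM. Its change was 0.13 in shG0s2 livers (edgeR adjusted p = 0.07) and 0.06 in shRgs16 livers (edgeR adjusted p = 0.418). Stk11 was lower in both knockdowns with TMM, at -0.69 in shG0s2 livers (edgeR adjusted p = 6.87e-07) and -0.37 in shRgs16 livers (edgeR adjusted p = 0.000207). Myo5b, a motor that carries vesicles to the canaliculus, went in opposite directions, with 0.17 in shG0s2 livers (edgeR adjusted p = 0.0163) and -0.98 in shRgs16 livers (edgeR adjusted p = 3.38e-07). Of 8 targets of the drug-sensing receptors PXR and CAR, 1 rose and 6 fell in shG0s2 livers and 1 rose and 3 fell in shRgs16 livers against shLacZ, or 2 and 2, and 3 and 3, with library size alone.

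Of 40 further Abc genes, which include Abcg5 and Abcg8 already counted among the canalicular carriers, 30 were tested. In shG0s2 against shLacZ livers 9 rose and 18 fell (median -0.33), and the split turned to 14 higher and 7 lower with library size alone. In shRgs16 against shLacZ livers 8 rose and 11 fell (median -0.14), or 12 rose and 3 fell without TMM. Their log2 changes with TMM spanned -1.30 to 3.48 in shG0s2 livers and -0.58 to 1.48 in shRgs16 livers. Abcc4 had 3.45 and 0.96, so its change was not the largest of all Abc genes. Abcc5, a pump for cyclic nucleotides, had log2 changes of 1.48 in shG0s2 and 0.83 in shRgs16 livers, and the sterol exporter Abcg1 1.31 in shG0s2 and 1.05 in shRgs16 livers. The mitochondrial Abcb10 had -1.30 in shG0s2 livers, and in shRgs16 livers -0.10 with TMM (edgeR adjusted p = 0.305) and 0.20 with library size alone. The mitochondrial Abcb8 had -0.57 in shRgs16 livers, and in shG0s2 livers -0.41 with TMM and 0.07 with library size alone.

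**Figure D4:**
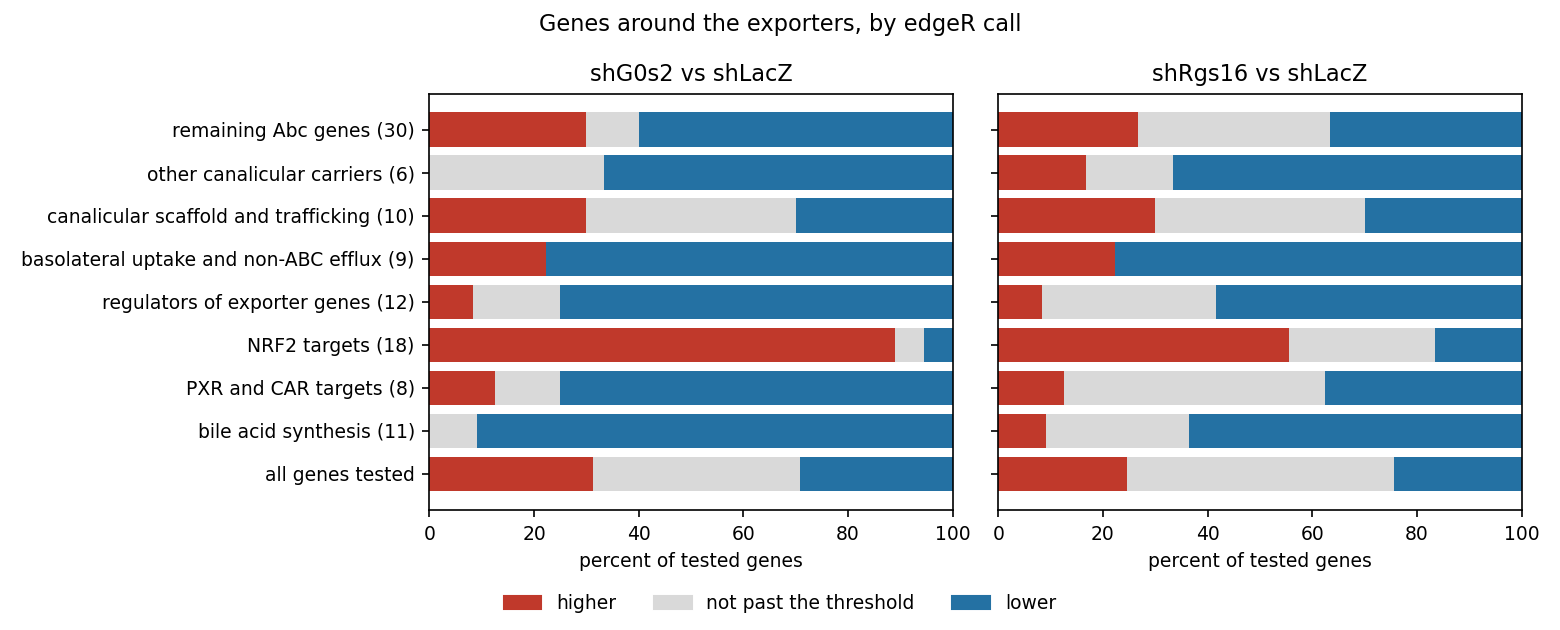
Percent of the tested genes of each list that were higher, lower or not past FDR 0.05 with TMM scaling, for both comparisons against shLacZ, with the number tested in shG0s2 against shLacZ in brackets and all tested genes as the lowest bar. The NRF2 target bar in shG0s2 against shLacZ holds 16 of 18 genes as higher, and the bile acid synthesis bar holds 10 of 11 as lower.

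Markers of other cell types moved in the same samples as the exporters, and in bulk tissue fewer cells of a type and less RNA per cell cannot be told apart. The summed level of 10 stellate cell and fibroblast markers was 734 to 902 CPM in shG0s2 livers, 329 to 574 CPM in shRgs16 livers and 226 to 269 CPM in shLacZ livers. The 10 Kupffer cell and macrophage markers summed to 964 to 1195 CPM in shG0s2 livers, 861 to 1046 CPM in shRgs16 livers and 643 to 720 CPM in shLacZ livers. All 10 stellate markers and 9 of 10 macrophage markers rose in shG0s2 against shLacZ livers, and 6 of 10 stellate markers (with 1 lower) and 8 of 9 macrophage markers rose in shRgs16 against shLacZ livers. The T and NK cell markers summed to 33.9 to 38.4 CPM in shG0s2 livers, 32.7 to 43.8 CPM in shRgs16 livers and 15.2 to 28.6 CPM in shLacZ livers, with 5 of 9 higher and 1 lower in shG0s2 livers and 6 of 9 higher and 1 lower in shRgs16 livers. Sums of cholangiocyte markers overlapped in all groups, at 310 to 411 CPM in shG0s2 livers, 292 to 409 CPM in shRgs16 livers and 287 to 431 CPM in shLacZ livers, as did those of endothelial and erythroid markers. Of these lists, 3 of 8 cholangiocyte markers rose and none fell in each knockdown, 2 of 10 endothelial markers rose and 2 fell in shG0s2 livers and 4 rose in shRgs16 livers, and 4 of 5 erythroid markers rose and 1 fell in shG0s2 livers and 1 of 4 rose and 1 fell in shRgs16 livers, all against shLacZ. Hepatocyte markers were present in every library, with sums of 31341 to 51785 CPM in shG0s2 livers, 54176 to 59521 CPM in shRgs16 livers and 45502 to 56387 CPM in shLacZ livers. Of the 10, none rose and 9 fell in shG0s2 against shLacZ livers, and 2 rose and 7 fell in shRgs16 against shLacZ livers. With library size alone 1 hepatocyte marker rose and 7 fell in shG0s2 livers, and the split turned to 3 higher and 2 lower in shRgs16 livers. Under that scaling 7 endothelial markers rose in shG0s2 livers and 9 in shRgs16 livers, 7 cholangiocyte markers rose in shG0s2 livers and 4 in shRgs16 livers, and none of these fell. Of all tested genes, 64.5% were higher in shG0s2 livers and 50.1% in shRgs16 livers with library size alone. The stellate markers were then higher in 10 and 7 cases, the macrophage markers in 10 and 9, and the T and NK cell markers in 6 and 7 (with 1 lower in each), in shG0s2 and in shRgs16 livers. The cholangiocyte marker Cftr was at 0 in 1 sample. Abcc1, Abcb1a and Abcb1b are also made by cells other than hepatocytes. The part of these cell types in the changes of any exporter, Abcc4 and Abcc3 included, was not tested.

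Over the 12 samples, the genes whose log2 CPM most resembled that of Abcc4 were Cbr3 (Pearson r = 0.987), Fndc10 (0.986) and Rtn4 (0.985), of 13657 genes compared, and 676 genes had r above 0.9. For Abcb11 they were Nostrin (0.968), Angptl4 (0.961) and Amdhd1 (0.950), and 24 genes had r above 0.9. These r values describe likeness over 3 groups that lie apart and share libraries and scaling. Nostrin lies at chr2:69135800-69189330, 48951 bases from Abcb11 on the opposite strand, with Spc25 and G6pc2 between them.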

How the data were processed

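Total RNA from liver was depleted of ribosomal RNA and sequenced, per the labels' protocols. The authors deposited 2 tables, each knockdown with the shLacZ samples, that hold estimated counts and TPM per gene and sample, with the authors' own fold (ratio), log2 ratio, p-value and adjusted p-value per gene. The shLacZ columns were identical in both. The submitters' processing notes name DESeq2, SAMtools 1.9, Bowtie2 2.2.9, fastp 0.19.5 and GATK 3.8; no counter or genome build was given in the sources used here. Other deposited columns hold annotation. All 55536 gene IDs matched the GENCODE M21 annotation, whose GRCm38 coordinates are given.

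The counts were rounded and tested in R 4.3.3 with edgeR 4.0.16 (filterByExpr, TMM, robust quasi-likelihood F test, Benjamini-Hochberg over all tested genes, FDR 0.05, two-sided), on 8 samples against shLacZ and on all 12 between the knockdowns. SE is the log2 change divided by the root of F. CPM per sample uses TMM over 12 samples. The test was also run on simulated data. Alternatives were scaling, filters, DESeq2 1.42.0, voom and TPM fits in limma 3.58.1 (pseudocount 0.1), a replicate block, and leaving out each sample. The members and lists were chosen with earlier results of these data known. Besides the members, the 2 genes of each list with the smallest p in each comparison against shLacZ could be named, and for Abcc4 and Abcb11 the 3 genes with the highest r. Replicates of a group differed by more than counting noise (chi-square 12.1 to 47.3 times its degrees of freedom).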

Additional observations from a re-analysis of the deposited data

Results flagged for a closer look

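In 2 of the 30 combinations of member and group, 1 sample stood apart from the other 3 by Dixon's test, which chance alone gives in about 1 in 20. Abcb4 was 434 CPM in shG0s2 sample 2, below the others of its group, and Abcg2 was 130 CPM in shLacZ sample 2, above the others of its group.

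The effects of the 2 knockdowns differed by the edgeR test of the difference itself in 9 members. The shG0s2 minus shRgs16 log2 change was 2.48 for Abcc4, 1.09 for Abcb1b, 0.52 for Abcc3, 0.51 for Abcb1a, 0.43 for Abcc2 and 0.35 for Abcc1. It was -0.86 for Abcc6, -0.67 for Abcb11 and -0.32 for Abcb4.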

How the results depend on the processing

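The count of members past the threshold stayed within 1.5 times its value in each comparison under every alternative run, and the canalicular median stayed below the basolateral one. In the 2 comparisons with shG0s2 the upper bound could not be passed with 10 members. Changing the scaling moves all members by nearly the same amount, so it could hardly alter the difference between the medians. Without 1 sample the counts were 7 to 9 (shG0s2 against shLacZ), 6 to 7 (shRgs16 against shLacZ) and 8 to 9 (shG0s2 against shRgs16), and the canalicular minus basolateral median was -1.30 to -1.12, -0.48 to -0.35 and -0.41 to -0.27. Of 580 values of single members, 535 kept direction and side of the threshold, and 19 changed sign, with or without a change of call. Of those that kept their sign, 13 lost the call and 13 gained one. With library size alone, shG0s2 against shLacZ changed sign for Abcb11 (0.14), Abcc2 (0.48), Abcb4 (0.36) and Abcg2 (0.0143), and shRgs16 against shLacZ for Abcc6 (0.13). On the log2(TPM + 0.1) scale the same 5 were 0.33, 0.53, 0.58, 0.23 and 0.17. Both scales leave in the shift of all genes. Values near 0 also changed sign: Abcc2 in shG0s2 against shLacZ was 6.3e-05 with a filter of 1 CPM in 4 samples and -0.0439 to 0.00996 without 1 sample, and Abcb1b in shRgs16 against shLacZ was -0.0879 to 0.119 without 1 sample. Relative log expression scaling, voom and TMM without the Mup genes changed no call.

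Replicate numbers did not pair the samples (correlations of same-numbered deviations -0.07 to 0.14). With a replicate block, Abcb11 in shRgs16 against shLacZ passed at 0.32 (edgeR adjusted p = 0.0154), and no other member's call changed. It also passed with DESeq2 (adjusted p = 0.048) and with all 12 samples (edgeR adjusted p = 0.0422), and Abcb11 in shG0s2 against shLacZ lost its call with no filter (edgeR adjusted p = 0.0542). The causes were not tested. Depth limits Abcb1b most, at 29 to 119 counts.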
